A study of Mus musculus with 4 samples.

Results

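Neutrophil granule and S100 genes were followed in single-cell RNA libraries of mouse liver. The 10 genes were chosen by symbol, out of 32285 genes in the feature tables, and each symbol was listed once per library. They fall into 3 groups by the stage at which a neutrophil makes their RNA. Mpo and Elane encode enzymes of the primary (azurophil) granules. Camp, Ngp, Ltf and Lcn2 encode proteins of the secondary granules. S100a8, S100a9, Retnlg and Wfdc21 are late or cytosolic genes that mature neutrophils still transcribe.

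The groups were male C57BL/6J mice, purchased at 5 weeks of age. The NCD group (1 library) ate normal chow. The HFD group (2 libraries) and the JQF group (1 library) ate a diet with 60% fat, for 14 weeks before an intervention of 8 weeks. During that time the JQF group received Jiangtang Qingre Formula, a preparation of 7 herbs, by mouth, and the other groups received distilled water. Livers of all groups were perfused and digested, red blood cells were lysed, and dead cells were removed before droplet capture. The labels describe the material as an immune cell and as a hematopoietic stem cell line, whereas the kept cells held hepatocytes, endothelial and epithelial cells as well as leukocytes. Liver tissue was collected with n = 2 in HFD and n = 1 in NCD and in JQF. Neither labels nor methods say in words that the HFD libraries are separate animals, so a p-value here rests on no spread beyond that between these 2 libraries. The fit drew this spread largely from all genes together. It had 35.7 degrees of freedom from them in neutrophils, 6.29 in monocytes and 7.43 in epithelial cells, against 1 from a gene's own HFD pair. A p-value is thus no measure of how far that pair differed in the gene itself. The NCD and JQF groups, of 1 library each, were taken to have the same spread.

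Granules form in order while neutrophils mature in bone marrow. Primary granule genes are transcribed in promyelocytes and secondary granule genes in myelocytes and metamyelocytes, and most of them are low in the mature cells that leave for blood and tissue, although Lcn2 can still be expressed there. S100a8 and S100a9 pair to form calprotectin, which sequesters metals and, once released, signals as an alarmin through receptors such as Tlr4. Monocytes also carry calprotectin in many settings, and Lcn2 and Ltf are made by epithelia as well as by neutrophils.

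Barcodes that held 500 genes or more, with no more than 20% of UMIs mitochondrial, were analysed as cells, and they numbered 5975 in NCD, 6516 and 10259 in the HFD replicates 1 and 2, and 8540 in JQF. A UMI is a molecular tag that counts 1 captured RNA molecule. The kept cells held 67615639 to 108062769 UMIs per library. Neutrophils were gated on the UMIs of 8 marker genes, among them Csf3r and Cxcr2, and no gene of the list described here was used. The gate held 113 cells in NCD (1.89% of kept cells), 500 and 534 in HFD (7.67% and 5.21%) and 466 in JQF (5.46%). NCD was the library with the fewest gated neutrophils and the one in which they were deepest, with a median of 5848 UMIs per cell against 3388.5, 3351 and 4133. The 8 gate markers summed to between 6627 and 8193 UMIs per 1000000 UMIs (CPM), whereas the marker list of any other cell type reached at most 150 CPM in these cells. Some of those lists were higher in NCD neutrophils, where endothelial markers (4 of 4 detected) summed to 119 CPM against 2.09 and 17.5 in HFD and 5.12 in JQF, hepatocyte markers (3 of 3) to 78.9 CPM against 8.88 to 17.1, and those of conventional dendritic cells (5 of 5) to 131 CPM against 39.0 to 40.8. Others were lowest in NCD. Macrophage markers summed to 12.96 CPM in NCD (5 of 6 detected), 35.01 and 150 in the HFD pair (5 and 6 of 6), and 22.0 in JQF, T cell markers to 9.42 (2 of 3) against 41.8, 57.4 and 123 (3 of 3), and classical monocyte markers to 40.0 (4 of 5, Vcan at 0) against 80.5, 117 and 78.0 (5 of 5). Their part in the HFD against NCD results was not tested. Clec4d, a neutrophil lectin that was not used in the gate, stood at 2004 CPM in NCD, 2142 and 1925 in the HFD pair, and 2220 in JQF, while Ly6g, the classical surface marker, was low in all libraries at between 7.07 and 31.4 CPM. Between 14 and 30 cell barcodes were shared by a pair of libraries.

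Upstream sequence is shown for an alarmin pair and for a pair of secondary granule genes, since these pairs behaved differently in the libraries. S100a8 and S100a9 lie near each other on chromosome 3, and Camp, Ngp and Ltf lie on chromosome 9. The sequences are from RefSeq promoter windows (GRCm38.p6), read 5′ to 3′ on the strand of the gene, and stop where the first annotated exon begins. The S100a8 run covers chr3:90668821-90668977 on the plus strand, and the S100a9 run chr3:90695722-90695971 on the minus strand. The Ngp run covers chr9:110419558-110419746 and the Ltf run chr9:111019042-111019270, both on the plus strand. Capitals mark a match to TTGCNNAA, a C/EBP-like motif, or to AGGAAGT, an ETS-like motif, on either strand.
S100a8: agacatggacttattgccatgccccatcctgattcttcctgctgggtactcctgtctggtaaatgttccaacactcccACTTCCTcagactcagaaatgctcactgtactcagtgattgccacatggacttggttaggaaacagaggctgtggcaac
S100a9: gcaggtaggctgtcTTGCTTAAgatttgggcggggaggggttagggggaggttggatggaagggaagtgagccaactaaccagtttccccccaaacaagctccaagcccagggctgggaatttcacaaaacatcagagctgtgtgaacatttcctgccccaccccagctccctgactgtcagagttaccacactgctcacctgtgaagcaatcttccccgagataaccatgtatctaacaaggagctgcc
Ngp: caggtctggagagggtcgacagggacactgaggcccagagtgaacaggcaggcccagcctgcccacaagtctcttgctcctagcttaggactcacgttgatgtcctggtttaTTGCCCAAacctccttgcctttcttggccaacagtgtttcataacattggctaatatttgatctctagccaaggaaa
Ltf: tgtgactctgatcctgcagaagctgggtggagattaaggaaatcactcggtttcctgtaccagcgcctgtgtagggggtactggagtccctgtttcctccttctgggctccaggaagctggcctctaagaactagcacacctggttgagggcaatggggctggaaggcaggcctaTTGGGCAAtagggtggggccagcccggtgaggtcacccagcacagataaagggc
In the 250 bases before the start site, the C/EBP-like motif was present in 5 of the 9 genes with a RefSeq entry and in 9.56% of all 32851 promoters. Its matches in S100a9 (TTGCTTAA at position -236), Ngp (TTGCCCAA at -138, and TTGGGCAA at -11, outside the printed run) and Ltf (TTGGGCAA at -75) were counted from the start site. The other matches were in Retnlg and Lcn2. AGGAAGT was found in S100a8, Mpo and Elane, 3 of the 9 genes, and in 7.69% of all promoters. An NF-kB-like motif (GGGA, then 4 bases of any kind, then CC) was found in 0 of the 9 and in 17.6% of all promoters, and TATAAA in S100a8 alone and in 12.4% of all. These matches describe letters in a window and no binding was measured.

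S100a8 and S100a9 were the most abundant of these genes in gated neutrophils and were higher in both HFD libraries than in NCD. S100a8 stood at 5738 CPM in NCD, 19392 and 21899 in the 2 HFD libraries and 13483 in JQF. S100a9, its partner, stood at 12716 CPM in NCD, 23729 and 28325 in the HFD pair, and 18586 in JQF. For both genes NCD was lowest, both HFD libraries were highest, and JQF lay between them. With single libraries of NCD and JQF this order is a description, and how many of all genes shared it was not counted. With edgeR's quasi-likelihood test on UMIs summed per library, adjusted by Benjamini-Hochberg over 9834 genes, S100a8 rose by 1.96 on the log2 scale (SE 0.22, adjusted p = 5.75e-08) and S100a9 by 1.15 (SE 0.20, adjusted p = 0.000126) in HFD against NCD. In that comparison 12.0% of all genes tested were called, 6.12% higher and 5.85% lower. S100a8 was called in 9 and S100a9 in 8 of 10 alternative analyses. Removal of the cells with the highest Scrublet doublet scores left 0 genes of the whole table called (1959 at an unadjusted p below 0.05), with S100a8 still at 1.88 (adjusted p = 0.204), and under a stricter gate S100a8 stood at 1.38 (edgeR adjusted p = 0.0484) and S100a9 at 0.62 (edgeR adjusted p = 0.126).

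Retnlg, a resistin-like secreted protein of mature neutrophils, was nearly level in summed UMIs. It stood at 1879 CPM in NCD, 1809 and 2070 in the 2 HFD libraries and 2017 in JQF, so NCD and JQF fell between the HFD replicates, and the fitted change of 0.16 (SE 0.27) between HFD and NCD was not called (edgeR, adjusted p = 0.769). Its median per cell was lower in HFD, at 947 CPM in NCD, 461 and 505 in the HFD pair, and 757 in JQF, and a Retnlg UMI was found in 79.6% of the deeper NCD cells against 63.2%, 62.2% and 70.2%. Wfdc21, a small protease inhibitor-like secreted protein, stood at 214 CPM in NCD, 484 and 640 in the HFD pair, and 363 in JQF. Wfdc21 was higher in HFD than in NCD by 1.51 (SE 0.34, edgeR adjusted p = 0.00206), and this call held in 6 of 10 alternative analyses. The change was 0.60 under the stricter gate and 0.59 in cells of 3000 to 6000 UMIs (edgeR adjusted p = 0.271 and 0.243). Its per-cell median did not follow the sums, at 162 CPM in NCD, 0 in both HFD libraries and 167 in JQF, and a UMI was found in 59.3%, 41.6%, 42.9% and 54.1% of cells. After thinning to 1000 UMIs these shares were 20.4%, 24.1%, 23.5% and 27.6%. Whether the late genes differed from each other in their change was not tested.

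**Figure D1:**
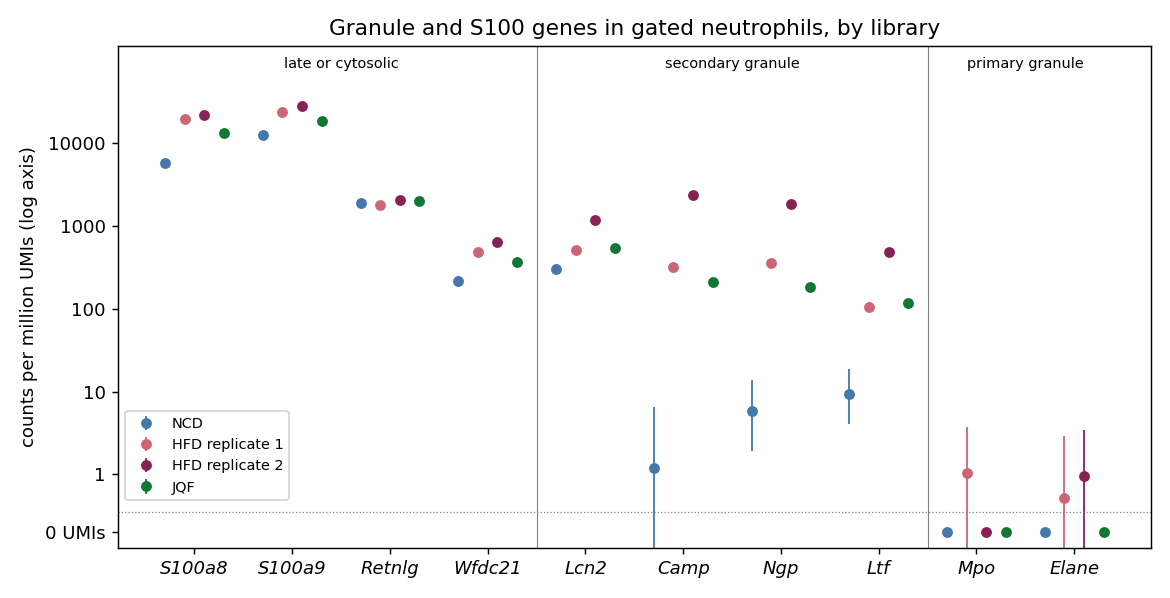
CPM (log axis) of each gene in gated neutrophils, 1 point per library, with exact Poisson 95% intervals that cover counting error only and points at 0 drawn on the lowest line. S100a8 and S100a9 lie between 5738 and 28325 CPM, Retnlg is level, Camp, Ngp and Ltf span orders of magnitude between libraries, and Mpo and Elane are at or near 0.

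S100a8 was detected in most neutrophils of every library, and its level per cell was lower in NCD. An S100a8 UMI was found in 88.5% of NCD neutrophils, 94.6% and 94.9% of HFD and 94.2% of JQF neutrophils. The median S100a8 level per cell was 3568 CPM in NCD, 14289 and 12268 in the 2 HFD libraries and 10530 in JQF. For S100a9 the medians were 11587, 18052, 15665 and 14313 CPM in the same order. It took the 74 richest of 500 and 37 of 534 cells to hold 50% of S100a8 UMIs in HFD, 16 of 113 in NCD and 77 of 466 in JQF. Relative to the number of cells the RNA was thus most concentrated in HFD replicate 2. There 10 of 534 cells held 37.5% of it, a share that 10 of 113 cells held in NCD. The proportions of the pair differed as well. In cells with at least 20 UMIs of the pair, S100a8 made up a median of 27.8% of the pair's UMIs in NCD (89 cells), 45.8% and 42.4% in HFD (422 and 439 cells) and 42.3% in JQF (394 cells), so NCD stood apart and JQF was at the level of HFD replicate 2. Summed UMIs gave the same order, with 0.451 S100a8 molecules per S100a9 molecule in NCD, 0.817 and 0.773 in the 2 HFD libraries and 0.725 in JQF. The RNA outside cells showed 0.581, 0.857, 0.857 and 0.803 in that order. These ratios compare UMIs, which count 1 tag per molecule and are not divided by gene length, and with 1 library in NCD and JQF they were not tested.

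JQF neutrophils carried less S100a8 and S100a9 per UMI than either HFD library, but the difference was not called and depended on the depth of the cells. The edgeR change from HFD to JQF was -0.74 (SE 0.21, adjusted p = 0.0965) for S100a8 and -0.62 (SE 0.20, adjusted p = 0.247) for S100a9. With expected free RNA subtracted S100a8 was called, at -0.76 (edgeR adjusted p = 0.0434), 1 of its 10 alternatives and the only one to do so. The change was -0.07 (SE 0.27, adjusted p = 1.00) for Retnlg and -0.76 (SE 0.32, adjusted p = 0.619) for Wfdc21. This comparison shares the HFD libraries with the one above. Cells with 3000 to 6000 UMIs, a window chosen after the depth difference was seen, held 7314 CPM of S100a8 in NCD, 19167 and 18556 in the HFD pair, and 18074 in JQF. Within that window S100a9 stood at 14708, 23795, 25434 and 25244 CPM. There the JQF library was level with HFD, with a fitted change of -0.12 for S100a8 and -0.02 for S100a9 (edgeR, adjusted p = 0.999 for both), whereas S100a8 was still higher in HFD than in NCD by 1.51 (adjusted p = 6.43e-07) and S100a9 by 0.88 (adjusted p = 0.00594). In cells over 6000 UMIs the order was different. S100a8 stood there at 4959 CPM in NCD (55 cells), 19862 and 34712 in HFD (32 and 42 cells) and 8549 in JQF (92 cells). The summed JQF level was thus below HFD over 6000 UMIs and under 3000 UMIs (12024 CPM in 71 cells, against 19563 and 14652 in HFD). The HFD cells over 6000 UMIs included most gated neutrophils rich in Camp, Ngp and Ltf, described below, which were high in S100a8. One such cell of HFD replicate 2 held 31139 UMIs, 4260 of them S100a8, and 5 neutrophils held 30.5% of S100a8 UMIs there. The level in the other deep HFD cells was not computed, so a lower level in deep JQF neutrophils at large is not shown. S100a9 in cells over 6000 UMIs stood at 11762 CPM in NCD, 25005 and 41180 in the HFD pair, and 11431 in JQF, so there JQF was no higher than NCD. What sets the depth of these cells was not tested.

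**Figure D2:**
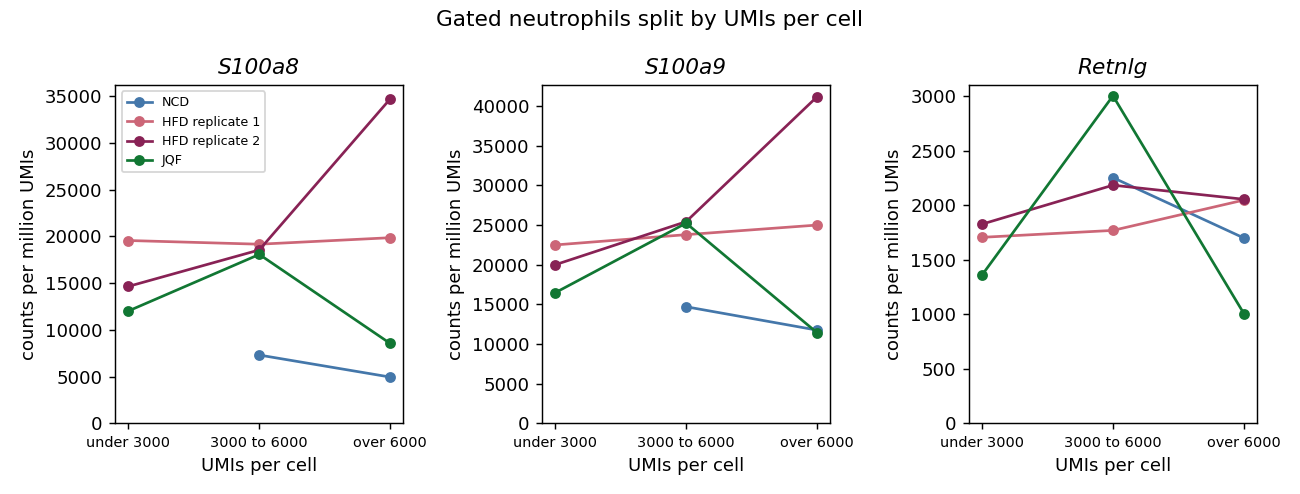
CPM of S100a8, S100a9 and Retnlg in gated neutrophils split by UMIs per cell, 1 line per library; bins with under 10 cells, here NCD under 3000 UMIs, are not drawn. Between 3000 and 6000 UMIs the HFD and JQF points for S100a8 lie between 18074 and 19167 CPM and NCD lies at 7314 CPM, whereas over 6000 UMIs JQF falls to 8549 CPM.

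Among the secondary granule genes Camp, Ngp and Ltf gave a different picture, since most of their RNA sat in very few cells, which was less so for Lcn2. Camp, the precursor of the antimicrobial peptide cathelicidin, stood at 1.18 CPM in NCD (1 UMI, exact Poisson 95% interval 0.0298 to 6.56), 320 and 2348 in the 2 HFD libraries and 209 in JQF. Ngp, neutrophilic granule protein, stood at 5.89 CPM in NCD, 362 and 1824 in the HFD pair, and 185 in JQF. Ltf, the iron-binding lactoferrin, stood at 9.42 CPM in NCD, 105 and 487 in the 2 HFD libraries and 118 in JQF. NCD was lowest for all 3 genes, and HFD replicate 2 was above every other library, including HFD replicate 1. Camp passed the filter on low counts only through the HFD and JQF libraries, so a difference from NCD was built into its being tested. Ngp and Ltf rested on 5 and 8 UMIs in NCD. Among the 10 genes, 8 passed that filter and 7 were called higher in HFD than in NCD, beside 6.12% of all genes. That count is given as a description, because of the filter for Camp and the few NCD UMIs of Ngp and Ltf. The fitted changes were 7.62 for Ngp (SE 0.75, edgeR adjusted p = 3.22e-09) and 5.07 for Ltf (SE 0.68, edgeR adjusted p = 1.44e-06). Camp was called as well (edgeR adjusted p = 4.09e-09), with no fold given because NCD held 1 UMI. These calls were lost without the cells of highest Scrublet score (edgeR adjusted p from 0.205 to 0.305 for the 3 genes), a setting in which 0 of 8887 genes were called (1959 at an unadjusted p below 0.05) and the changes were still 5.15 for Ngp and 3.38 for Ltf. Under the stricter gate Ngp stood at 1.03 and Ltf at -0.11 (edgeR adjusted p = 0.724 and 0.929), and in cells of 3000 to 6000 UMIs at 0.82 and 0.36 (edgeR adjusted p = 0.721 and 0.824), while Camp did not pass the filter on low counts in either. The window of 3000 to 6000 UMIs left out, by its limits, every cell with at least 100 UMIs over the 3 genes, since these cells held 7398 UMIs or more. The stricter gate, which allows at most 1 UMI of any other list, kept 22 of 1506 and 39 of 9824 UMIs of the 3 genes in the HFD pair. Neither setting can thus test the change carried by the cells rich in these genes. Lcn2, the siderophore-binding lipocalin 2, stood at 306 CPM in NCD, 518 and 1199 in the HFD pair, and 535 in JQF, with NCD lowest, JQF near HFD replicate 1 and a change of 1.60 (SE 0.37, edgeR adjusted p = 0.00293) that was called in 4 of 10 alternatives. It was 1.06 without the 3 cells of each library richest in Camp, Ngp and Ltf and 0.24 under the stricter gate (edgeR adjusted p = 0.131 and 0.673). The median Lcn2 level per cell was 162 CPM in NCD and 0 in each other library, and after thinning to 1000 UMIs a UMI was found in 27.4% of NCD, 19.9% and 25.4% of HFD and 25.9% of JQF neutrophils, so the sums were higher in HFD although no larger share of cells held the gene.

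Only 1.00% (5 cells) and 2.62% (14 cells) of HFD neutrophils held a Camp UMI, against 0.885% (1 cell) in NCD and 1.07% (5 cells) in JQF. The 3 richest neutrophils held 98.2% of Camp UMIs in HFD replicate 1, 73.4% in replicate 2 and 99.6% in JQF. Without those 3 cells Camp stood at 0 CPM in NCD, 5.75 and 624 in the HFD pair, and 0.787 in JQF. Ngp followed the same pattern, with 95.8%, 67.1% and 98.9% of its UMIs in 3 cells of these libraries. Ltf had 84.1%, 61.6% and 91.0%. By contrast the 3 richest neutrophils held 11.3% and 22.2% of S100a8 UMIs in HFD and 7.62% in JQF, and 32.9%, 46.7% and 27.0% of Lcn2 UMIs. Lcn2 was thus intermediate, detected in 35.2% to 55.8% of neutrophils in every library and also high in a few of them.

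**Figure D3:**
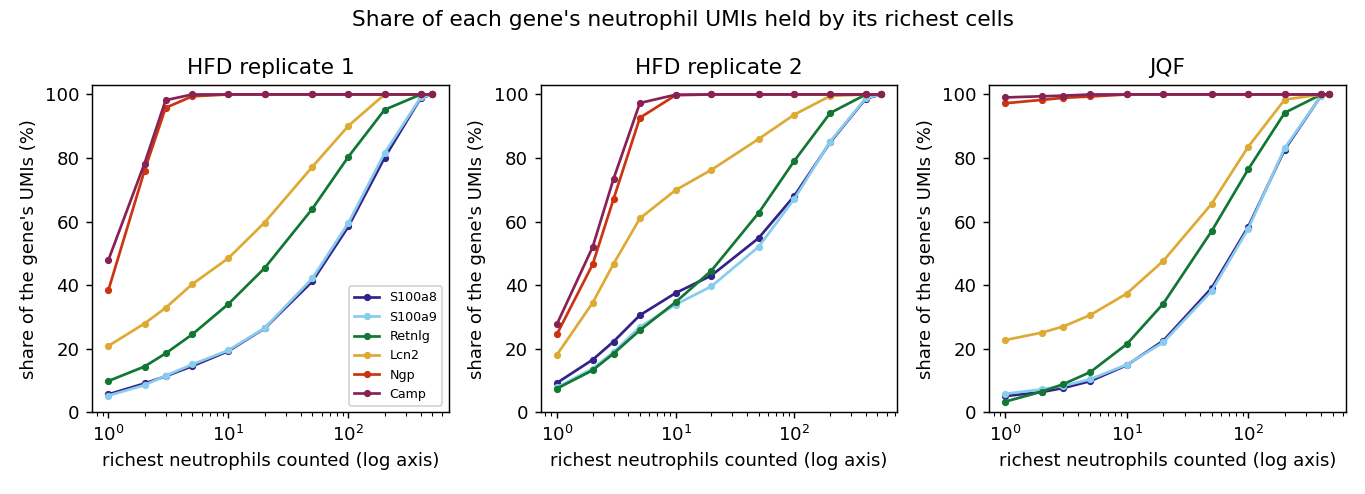
Cumulative share (%) of each gene's neutrophil UMIs against the number of its richest neutrophils counted (log axis), for the HFD and JQF libraries. Camp and Ngp reach 98.2% and 95.8% at 3 cells in HFD replicate 1, whereas S100a8, S100a9 and Retnlg rise gradually over many cells.

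In JQF against HFD, Camp (-2.78, SE 0.56, edgeR adjusted p = 0.00563) and Ngp (-2.68, SE 0.50, edgeR adjusted p = 0.00267) were called lower, beside 0.559% of all genes called and 0.214% called lower. Ltf (-1.44, SE 0.46) and Lcn2 (-0.80, SE 0.35) were not called, with edgeR adjusted p of 0.237 and 0.685. Ltf was called in 2 alternatives, without the filter on low counts (edgeR adjusted p = 0.00686) and with at least 200 genes per cell (edgeR adjusted p = 0.0466). In JQF 1 neutrophil supplied 96.7% of all Camp and 93.6% of all Ngp of the library. Without the 3 cells of each library that were richest in Camp, Ngp and Ltf, inside or outside the gate, neutrophils held 70.2 and 1157 CPM of Camp in HFD against 1.99 in JQF, and 87.6 and 1027 CPM of Ngp against 5.17. The differences were then larger, at -8.33 for Camp and -6.85 for Ngp, and were not called (edgeR adjusted p = 0.112 for both). Cells with at least 100 UMIs over Camp, Ngp and Ltf numbered 4 and 11 in HFD and 1 in JQF. Taking 3 cells from each library thus removed the only such JQF cell and left most of those of HFD replicate 2. A larger difference was built into this setting. The calls of Camp and Ngp each held in 4 alternatives, of 8 for Camp and 10 for Ngp. The fitted change without HFD replicate 2 was -0.76 for Camp and -1.12 for Ngp. Ltf without HFD replicate 2 was 0.02.

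Secondary against late genes were also compared as a ratio of summed UMIs. The late genes do not mark mature cells alone, so this is not a ratio of immature to mature cells. In the 26 cells rich in secondary granule RNA that are described below, late genes were also higher than in other gated neutrophils. S100a8 stood at 85076 against 13741 CPM, Wfdc21 at 3695 against 341 and Retnlg at 4000 against 1790. Neutrophils held 1.57 secondary UMIs per 100 late UMIs in NCD (exact 95% interval 1.39 to 1.77, counting error only), 2.87 (2.76 to 2.99) and 11.1 (10.9 to 11.3) in HFD and 3.04 (2.93 to 3.16) in JQF. HFD replicate 1 and JQF were close to each other, and HFD replicate 2 stood apart from all. Lcn2 supplied 260 of the 274 secondary UMIs of NCD, and with Camp, Ngp and Ltf alone the ratios were 0.0803, 1.73, 8.80 and 1.49. When all 4 genes were kept and only cells with 3000 to 6000 UMIs were taken, the ratios were 1.39, 0.976, 1.21 and 1.31, so the order of libraries was no longer that of the whole gate. The cells with at least 100 UMIs over Camp, Ngp and Ltf held 7398 UMIs or more, so this window left them out by its limits. The change of order was thus largely set in advance. The stricter gate gave 1.46, 0.813, 1.15 and 1.20. It kept 8, 22, 39 and 26 UMIs of Camp, Ngp and Ltf, so it too had lost nearly all of that RNA in HFD and JQF.

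Cells rich in secondary granule RNA were then sought in all kept cells, inside and outside the neutrophil gate. At least 5 UMIs over Camp, Ngp and Ltf, from at least 2 of them, were found in 0 cells of NCD, 6 and 16 of HFD and 4 of JQF. Of these 26 cells 4 lay in the epithelial gate, had Ltf without any S100a8 or S100a9, and carried Epcam or Krt19. At least 100 such UMIs were found in 0, 4, 11 and 1 cells. Among these 16 cells, which held 7398 to 35542 UMIs, Chil3 was detected in 16, Cebpe, a transcription factor required for secondary granules, in 15, and the cycling genes Mki67 or Top2a in 9, and 13 met the gate for granulocyte precursors. That gate asks for at least 2 UMIs from at least 2 of Cebpe, Fcnb, Prtn3, Ctsg, Ms4a3 and Itgb2l, and 2 times those of lists other than neutrophil and classical monocyte. The Cebpe count and the gate count are thus not separate evidence, and 2 UMIs are a low bar for cells this deep. The doublet caller Scrublet placed 12 of the 16 among the highest scores of their libraries, and whether they were single cells was not tested. Pooled over the 26 cells, S100a8 stood at 85076 CPM and S100a9 at 104042, against 13741 and 18687 in the other gated neutrophils. The 26 cells also held 9495 CPM of Lcn2 against 380. The receptor genes Csf3r (164 against 1883 CPM) and Cxcr2 (127 against 570) and the cytokine genes Il1b (272 against 7766) and Cxcl2 (442 against 13936) were low in them. Since the cells were chosen by their RNA, and the other neutrophils by a gate that uses Csf3r and Cxcr2, these contrasts are descriptions. The genes with the highest ratio to other neutrophils were Fcnb, Mmp7, Chil3, Prtn3, Sftpd, Wfdc2, Cxcl5, Dmbt1, Slc4a4 and Kitl, among which Fcnb, Chil3 and Prtn3 are granule genes and Mmp7, Sftpd and Wfdc2 are epithelial ones. Chil3, which encodes a chitinase-like protein of the secondary granule stage, stood at 6486 CPM in the 26 cells against 14.8.

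Primary granule genes were nearly absent from neutrophils. Mpo, myeloperoxidase, was at 0 UMIs in NCD, HFD replicate 2 and JQF neutrophils and at 2 UMIs (1.05 CPM) in HFD replicate 1. Elane, neutrophil elastase, was at 0 in NCD and JQF and at 1 and 2 UMIs in HFD (0.523 and 0.948 CPM). The limits that 3 UMIs set lay near these values, so no difference was detectable, and neither gene passed the filter on low counts. Both genes were found instead in a few deep cells of other gates. In HFD replicate 2, a monocyte-gated cell of 53785 UMIs held 277 Mpo and 454 Elane UMIs, and another of 50139 UMIs held 202 and 222, and neither held Camp, Ngp or S100a8. A basophil-gated cell of HFD replicate 1 held 223 and 81. A further HFD replicate 2 cell, in the macrophage gate, held 109 Mpo and 305 Elane together with 1255 Camp, 520 Ngp and 2192 S100a8 UMIs, the only cell with primary and secondary granule RNA in number. It held 35542 UMIs, 55 of them from the macrophage gene C1qa, and was among the highest Scrublet scores, and whether it was a single cell was not tested.

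Classical monocytes were gated on Ly6c2, Ccr2, F13a1, Vcan and Ms4a4c, and numbered 28 in NCD, 634 and 910 in the 2 HFD libraries and 492 in JQF. S100a8 stood in them at 0 CPM in NCD, 22.0 and 15.7 in the 2 HFD libraries and 13.1 in JQF. S100a9 stood at 0, 16.4, 12.9 and 8.98 CPM. These levels are small fractions of those in neutrophils of the same libraries. NCD monocytes held 0 UMIs of either gene in 459990 UMIs, and S100a8 in the HFD replicates was 3.38-fold and 2.41-fold the level of 3 UMIs (6.52 CPM). These folds are no lower bounds, since a few HFD monocytes held much of the RNA, as given below, and NCD had only 28 monocytes. The edgeR test called S100a8 (adjusted p = 0.0327) and S100a9 (adjusted p = 0.0377), beside 7.03% of 12839 genes called, 2.88% higher and 4.14% lower. Both genes passed the filter on low counts only through HFD and JQF, so these calls are a description. They held in 4 and 3 of 8 alternatives, 2 of which left the monocytes unchanged and could not differ, and were lost, among others, with expected free RNA subtracted (edgeR adjusted p = 0.134 and 0.293), and that of S100a8 with DESeq2 (adjusted p = 0.104), which gave no adjusted p for S100a9. In JQF against HFD none of the genes tested was called in monocytes, where 0.0156% of all genes, 2 of them, passed (1120 at an unadjusted p below 0.05, and 11 by DESeq2), and S100a8 changed by -0.44 (SE 0.28, edgeR adjusted p = 0.728).

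An S100a8 UMI was seen in 5.36% and 10.0% of HFD monocytes and in 8.13% of JQF monocytes, at median depths of 10062.5 to 14306 UMIs. T cells, which do not make the gene, had one in 2.79%, 6.11% and 2.64% of cells at 6520 to 7803 UMIs. After thinning each cell to 1000 UMIs the shares were 0.946%, 1.98% and 0.813% in monocytes and 0.429%, 0.930% and 0.149% in T cells. The 3 richest monocytes held 56.2%, 38.7% and 52.7% of S100a8 UMIs, and without them the level was 9.65, 9.63 and 6.18 CPM. T cells without their own 3 richest cells held 3.31, 7.89 and 2.74 CPM. Nonclassical monocytes held 374 CPM of S100a8 in HFD replicate 1, all of it in 3 of 66 cells, and 18.7 CPM in replicate 2.

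Free RNA was measured in barcodes of 1 to 100 UMIs, which are empty droplets. It held 69.9 CPM of S100a8 in NCD, 581 and 638 in the HFD pair, and 362 in JQF, and 120, 678, 745 and 451 CPM of S100a9. The free level thus followed the order of the neutrophils themselves. T cells carried S100a8 at 0.835% of the free level in NCD, 0.633% and 1.32% in the HFD pair, and 0.789% in JQF, and classical monocytes at 3.79%, 2.46% and 3.61% in HFD and JQF. Hepatocyte genes, another source of free RNA, reached 1.39% to 2.53% of their free level in T cells. Over 18 sums of lymphoid and dendritic classes the S100a8 level had a median of 0.931% of free RNA, with a range of 0.388% to 5.54%. Neutrophils held 88.7%, 88.8%, 76.5% and 92.0% of the S100a8 UMIs in kept cells of NCD, HFD replicates 1 and 2 and JQF. Outside the neutrophil gate 10, 30, 45 and 36 cells held at least 20 S100 UMIs, most of them in no gate in the HFD and JQF libraries, and 9, 19, 32 and 19 of them were among the highest Scrublet scores. They carried 8.32%, 10.2%, 21.3% and 6.79% of S100a8 UMIs, more than the gated T, NK and B cells held together.

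**Figure D4:**
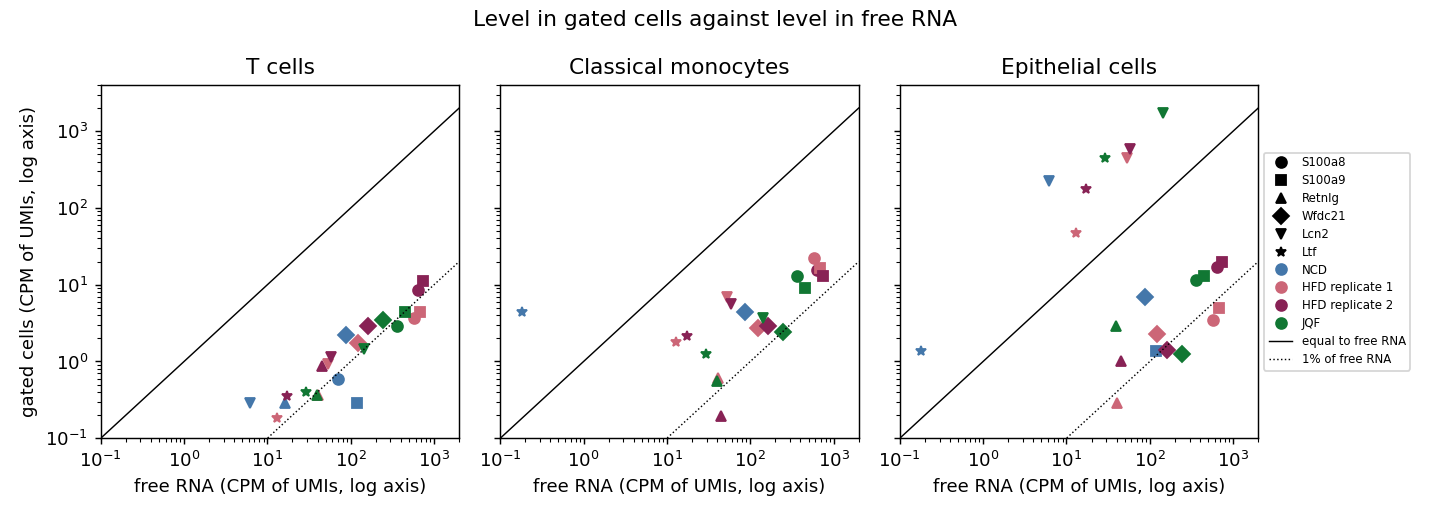
Level of 6 genes in gated T cells, classical monocytes and epithelial cells (CPM, log axis) against their level in free RNA (CPM, log axis), 1 point per gene and library; the solid line marks equality, the dotted line 1% of free RNA, and values of 0 are not drawn. T cell points follow the dotted line, whereas Lcn2 and Ltf in epithelial cells lie above equality.

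Lcn2 and Ltf had a second source in the epithelial gate (Epcam, Krt19, Cldn4, Sox9), where Krt8 and Krt18, keratins not used for gating, stood at 1844 to 5117 and 1356 to 1680 CPM. This gate held 29 cells in NCD, 204 and 116 in the 2 HFD libraries and 383 in JQF. Lcn2 stood there at 226 CPM in NCD, 444 and 584 in the HFD pair, and 1709 in JQF, highest in JQF. Ltf stood at 1.36 CPM in NCD (1 UMI), 46.7 and 177 in the 2 HFD libraries and 445 in JQF, again highest in JQF. An Ltf UMI was found in 3.45%, 7.84%, 12.1% and 32.1% of the epithelial cells in that order, and an Lcn2 UMI in 79.3%, 65.2%, 46.6% and 69.2%, at median depths of 22467, 13909.5, 31524 and 20626 UMIs. After thinning to 1000 UMIs the shares were 0%, 2.94%, 9.48% and 16.7% for Ltf and 17.2%, 20.1%, 18.1% and 30.5% for Lcn2, with JQF highest for both. Unlike in neutrophils, the RNA was spread in JQF, where the 3 richest cells held 11.9% of Lcn2 and 17.0% of Ltf, while in HFD replicate 2 they held 53.6% and 56.0%. In JQF the epithelial level of Lcn2 was 1200% of that in free RNA, and that of Ltf 1523%. Epithelial cells of HFD replicate 2 differed from the others in Krt19 (4465 CPM against 292 to 1787) and Sox9 (125 CPM against 247 to 633), so the HFD pair was heterogeneous. Macrophage markers summed there to 127 CPM against 4.09 to 10.1 in the other libraries, and removal of the highest Scrublet scores took its epithelial cells from 116 to 49, against 204 to 187 in HFD replicate 1 and 383 to 357 in JQF. The edgeR fit, added after these levels were seen, called neither gene. Ltf in HFD against NCD, with 1 UMI in NCD and so no fold given (edgeR adjusted p = 0.994), passed the filter only through HFD and JQF. As a description, it was called in 3 of 9 alternatives, without TMM factors (edgeR adjusted p = 0.0224), with DESeq2 (0.0376) and without the filter on low counts (0.000469). Lcn2 changed by 1.52 (SE 1.07) and Ltf by 1.63 (SE 1.03) from HFD to JQF, both with adjusted p = 1.00, and Lcn2 by 1.72 (SE 1.21, adjusted p = 0.994) from NCD to HFD. In these fits 0.0486% of 14395 genes, 7 of them, were called in JQF against HFD and 0.0% in HFD against NCD (457 at an unadjusted p below 0.05, and 16 by DESeq2).

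The cells that held each gene therefore changed between libraries. Neutrophils held 55.9% of all Lcn2 UMIs in NCD, 29.0% and 36.1% in the HFD pair, and 6.14% in JQF, and the epithelial gate held 35.7%, 45.0%, 41.0% and 91.5%. For Ltf the epithelial share was 3.85%, 28.7%, 30.8% and 92.6%. In the JQF library most Lcn2 and Ltf was thus epithelial, although the level within neutrophils was close to that of HFD replicate 1. Wfdc21 was also found in the hepatocyte gate, which held 45.7%, 48.8%, 40.5% and 28.8% of its UMIs, at 834, 1736, 1283 and 1469 CPM in 86, 31, 115 and 29 cells. Neutrophils held 16.2%, 35.8%, 29.1% and 50.2% of Wfdc21 UMIs, less than the hepatocyte gate in NCD and in both HFD libraries. In NCD the endothelial gate held a further 24.3%. These shares depend on how many cells of each type were captured.

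**Figure D5:**
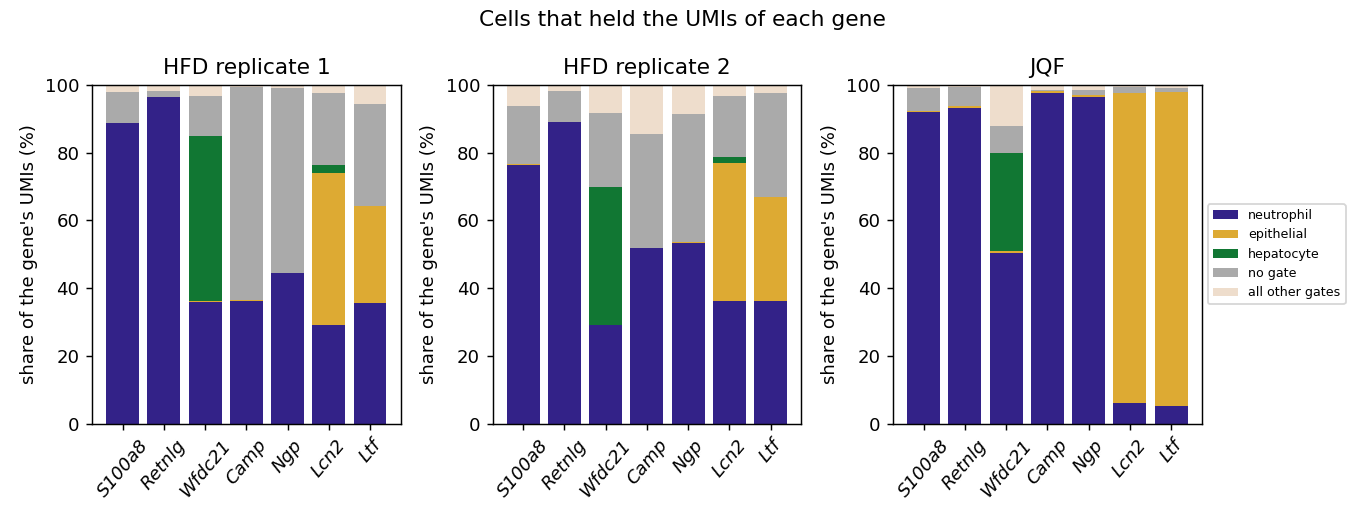
Share (%) of each gene's UMIs held by neutrophil, epithelial and hepatocyte gates, by cells in no gate and by all other gates, in the HFD and JQF libraries. Neutrophils hold 76.5% to 92.0% of S100a8, whereas the epithelial gate holds 91.5% of Lcn2 and 92.6% of Ltf in JQF.

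Other genes of the granule and alarmin programmes were read from the same fits. Of 20 other granule and effector genes tested in neutrophils, 6 were called higher in HFD than in NCD and 0 lower, beside 6.12% and 5.85% of all genes, with a list median of 0.87 on the log2 scale beside 0.06 over all genes. They included Cd177 (2.49), a surface glycoprotein stored in secondary granules, Lyz2 (2.14), lysozyme, and Cyba (1.64) and Cybb (1.62), the membrane subunits of the NADPH oxidase. Of these, Cd177 was concentrated in few cells. It had 286 UMIs (934 CPM) in 21 cells rich in secondary granule RNA, of the neutrophil gate or no gate, against 89 (12.3 CPM) in all other gated neutrophils. Chil3 was called as well, at 0 CPM in NCD, 59.6 and 527 in the 2 HFD libraries and 145 in JQF, and it too was tested only through the libraries in which it was present. Of the other S100 genes 3 of 6 tested were higher (S100a4 by 2.67, S100a11 by 1.08 and S100a6 by 0.95) and 0 lower, with a median of 0.96. Among receptors for these proteins 2 of 4 were higher, Tlr4 (1.92), a receptor for calprotectin, and Fpr2 (1.57), a formyl peptide receptor, with a median of 1.50. Genes of neutrophil ageing and activation were mixed, with Ccl3 (1.95), Ccl4 (1.47) and Cxcl2 (1.47) higher, the cytokine Il1b lower (-0.76), 4 not called and a median of 0.37. In this comparison 0 genes of the whole table were called without the highest Scrublet scores and 56 under the stricter gate. In JQF against HFD 0 of the 38 tested genes of these 4 lists were called in neutrophils by edgeR (7 at an unadjusted p below 0.05, and 0 by DESeq2), with medians between -0.49 and -0.18 beside -0.02 over all genes. The most abundant gene of each list was then Slpi (-0.24), S100a11 (-0.37), Fpr2 (-0.31) and Cxcl2 (-0.40).

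In classical monocytes, where 2.88% of all genes were called higher and 4.14% lower, 4 of 17 granule and effector genes were called higher in HFD than in NCD, Slpi (3.05), Chil3 (1.70), Ncf4 (1.24) and Hp (1.15), with a median of 0.58 beside 0.26 over all genes. Of the other S100 genes 4 of 6 were higher, S100a4 (1.48), S100a10 (1.29), S100a6 (1.26) and S100a11 (1.23), with a median of 1.28. Marker lists of other cells moved with the groups in this gate. Macrophage markers summed to 2.17 CPM in NCD (1 of 6 detected, C1qa at 0), 40.9 and 114 in the HFD pair, and 25.7 in JQF, endothelial markers to 43.5, 5.43, 12.2 and 6.60 CPM and hepatocyte markers to 32.6, 3.02, 5.88 and 5.05 CPM, and their part in these changes was not tested. S100a4 reached 2467 and 2080 CPM in HFD monocytes against 828 in NCD and 2010 in JQF. These 4 genes lay between 278 and 2467 CPM in every library, whereas 6 of the 12 other S100 genes did not pass the filter on low counts and lay at 1.06 CPM or below. Cd36 (3.16) and Fpr2 (3.03) were higher among the receptors, and Icam1 (-1.46) was lower among the activation genes. In JQF against HFD 0 of 35 were called in monocytes by edgeR (6 at an unadjusted p below 0.05, and 1 by DESeq2), where S100a4 changed by -0.10 and Cxcl2 by 1.32.

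Genes most like S100a8 were ranked by the correlation of log2(CPM + 1) over 28 sums, 7 gated classes in 4 libraries, among 7196 genes. The highest were Il1f9 (r = 0.968), Gm16556 (0.956), Slfn4 (0.954), Tarm1 (0.951) and Trem3 (0.949). For Ngp they were Cd177 (0.941), Il1f9 (0.909), Chil1 (0.902), Tarm1 (0.900) and Chil3 (0.897). These values describe classes of shared libraries, in which neutrophils are far above the other classes, and carry no test.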

How the data were processed

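Single-cell RNA was measured in 4 liver libraries (NCD 1, HFD 2, JQF 1). The deposited values are raw UMI counts per gene and barcode, which the authors made with Cell Ranger 6.0.1 on mm10 (Seurat 4.0.3 is also named, per the labels' processing notes), while the matrix headers name other Cell Ranger versions. Whether intronic reads were counted is not given in the sources used here. Both the matrices of called cells and those of all barcodes were read. Filters were at least 500 genes and at most 20% mitochondrial UMIs. A cell entered a class with at least 3 UMIs from at least 2 markers and at least 2 times the UMIs of every other list, and 9.79% to 26.6% of kept cells entered none. The stricter gate, an alternative, asked for at least 5 UMIs from at least 3 markers and at most 1 UMI of every other list. Free RNA came from barcodes of 1 to 100 UMIs outside the called cells, which held 6.68% to 10.5% of all UMIs with other uncalled barcodes. Scrublet (in scanpy 1.11.5) at its own threshold marked 0.0667% to 3.23% of barcodes, which is too few in 2 libraries to have worked, so no cell was removed in the analysis as reported, and removal by rank was an alternative.

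UMIs summed per library were tested with edgeR 4.0.16 (quasi-likelihood, TMM, filterByExpr, group as the only term, all 4 libraries in 1 fit, Benjamini-Hochberg over all genes tested, threshold 0.05). The only residual degree of freedom comes from the HFD pair. DESeq2 1.42.0 was an alternative, with other filters, gates, depths, free RNA subtraction and libraries left out. The script was tested on simulated data: in neutrophils, HFD against NCD, it recovered 23% of 2-fold and 69% of 4-fold changes over 9285 genes, and 20% and 78% in JQF against HFD. False calls numbered 7 and 4. Every simulated gene was given the same spread between libraries, whereas Camp, for example, stood at 320 and 2348 CPM in the real HFD pair. These rates are therefore not the power of the test on these data. Intervals are exact Poisson or binomial 95% intervals and cover counting error only. Levels are given for the 10 genes in neutrophils and for some of them in the other classes. Of other lists the called genes with the largest change are given, at most 5, or the most abundant where 0 were called. Also named are the 5 genes whose levels over classes and libraries correlate best with S100a8 and with Ngp (at least 50 CPM in a sum), and the 10 with the highest ratio in cells rich in Camp, Ngp and Ltf (at least 200 CPM there). The study tested single cells as units, which was not followed here. The genes, lists and gates were chosen with earlier results of these data known. Cell calling by the authors removes shallow barcodes, which matters for neutrophils, whose RNA content is low.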

Additional observations from a re-analysis of the deposited data

How the results depend on the processing

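No paired analysis was possible because the groups share fewer than 2 replicate numbers. Leaving out either HFD library leaves no residual degree of freedom, so counts of called genes have no value then and fold changes no test. Without 1 HFD library the HFD against NCD change in neutrophils ranged from 1.90 to 2.02 for S100a8, 1.04 to 1.24 for S100a9, 0.90 to 2.05 for Lcn2, 6.06 to 8.34 for Ngp and 3.61 to 5.76 for Ltf, the lower value being that without HFD replicate 2 for each. The JQF against HFD change ranged from -0.80 to -0.68 for S100a8, -0.71 to -0.51 for S100a9, -3.59 to -0.76 for Camp, -3.40 to -1.12 for Ngp, -2.14 to 0.02 for Ltf and -1.26 to -0.11 for Lcn2.

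The genes called in neutrophils, HFD against NCD, numbered 1177, and 350 with DESeq2, 0 without the highest Scrublet scores, 56 under the stricter gate, 420 after thinning to 1000 UMIs and 765 in the window of 3000 to 6000 UMIs. In JQF against HFD they numbered 55, and 17 without TMM factors, 6 with DESeq2, 105 without a filter on low counts, 100 with at least 200 genes per cell, 0 without the highest Scrublet scores, 0 under the stricter gate, 19 after thinning, 87 with free RNA subtracted and 10 without the 3 richest Camp, Ngp and Ltf cells. In monocytes, HFD against NCD, 902 became 1895 without the filter, 573 under the stricter gate and 125 after thinning, and in JQF against HFD 2 became 0 without TMM factors, 11 with DESeq2, 376 without the filter, 14 without the highest Scrublet scores, 179 under the stricter gate, 62 after thinning and 6 with free RNA subtracted. In epithelial cells, HFD against NCD, 0 became 60 without TMM factors, 16 with DESeq2, 231 without the filter and 13 in the window, and in JQF against HFD 7 became 82, 43, 190 and 3 under these 4 settings, and 0 without the highest Scrublet scores, under the stricter gate and with free RNA subtracted. The cause of these shifts was not tested. Where an alternative called 0 genes with edgeR, those at an unadjusted p below 0.05 numbered 1959 and 512 in neutrophils without the highest Scrublet scores (HFD against NCD, then JQF against HFD), 257 in neutrophils under the stricter gate, 1079 in monocytes without TMM factors, and 933, 206 and 326 in the 3 epithelial settings just named. The window could not be fitted in monocytes, where NCD held 0 such cells, and its epithelial counts rest on 1 NCD cell, 4 of HFD replicate 2 and 8 of JQF. Under the stricter gate NCD held 4 monocytes and 6 epithelial cells, so those counts say little.

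Secondary UMIs per 100 late UMIs in neutrophils of NCD, HFD replicate 1, HFD replicate 2 and JQF were 1.51, 1.39, 2.56 and 1.36 without the highest Scrublet scores, 1.46, 0.813, 1.15 and 1.20 under the stricter gate, 1.69, 1.74, 3.57 and 1.52 after thinning, 1.56, 1.36, 7.06 and 1.33 without the 3 cells of each library richest in Camp, Ngp and Ltf (111 of 113, 498 of 500, 532 of 534 and 465 of 466 neutrophils kept, since some of those cells lay outside the gate), and 1.39, 0.976, 1.21 and 1.31 in the window, so NCD was lowest in none of these 5 settings. Most secondary UMIs of NCD were from Lcn2. With Camp, Ngp and Ltf alone NCD was lowest after thinning, at 0.0359 (1 UMI) against 0.790, 2.04 and 0.340. It was also lowest without the richest cells, at 0.0584 against 0.466, 5.35 and 0.0628, but not in the other settings. The window by its limits left out every cell with at least 100 UMIs over these genes, and the stricter gate kept 22 and 39 of their UMIs in the HFD pair. Directions that turned were all of changes that were not called, except that of Ltf. In neutrophils, HFD against NCD, Retnlg was -0.36 under the stricter gate and -0.053 in the window, and Ltf -0.11 under the stricter gate. In neutrophils, JQF against HFD, Retnlg was 0.058 without TMM factors, 0.38 under the stricter gate, 0.27 after thinning and 0.55 in the window, Wfdc21 0.18 in the window, and Lcn2 0.18 under the stricter gate and 0.27 in the window. In monocytes without the highest Scrublet scores Wfdc21 was 6.34 in HFD against NCD and 0.62 in JQF against HFD, and S100a9 was 0.015 in JQF against HFD and, with thinning instead, 0.56. In epithelial cells, JQF against HFD, S100a8 was 0.19 and S100a9 0.062 without TMM factors, and S100a9 0.79 without the highest Scrublet scores. The window, and all epithelial fits, were added after the data were seen. NCD held 113 neutrophils and 28 classical monocytes, which limits its precision.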

Other observations

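With the epithelial and other gated cells left out, a choice made after their values were seen, 21 of the 26 cells rich in secondary granule RNA remained, of which 13 met the gate for granulocyte precursors. Their leading genes by ratio to other neutrophils were Fcnb, Chil3, Orm1, Serpinb1a, Hist1h2ab, Pclaf, Cd177, Hist1h2ap, Adpgk and Cebpe, without Prtn3, which was among the leading 10 of all 26. Fcnb (340 CPM against 0 UMIs) encodes ficolin B and Serpinb1a (797 against 4.30 CPM) an inhibitor of granule proteases. The histone genes Hist1h2ap (751 against 10.1 CPM) and Hist1h2ab (258 against 3.19 CPM) and the replication gene Pclaf (274 against 3.61 CPM) are typical of S phase. Chil3 stood at 8623 CPM in these cells, Mpo at 0 UMIs and Elane at 2 UMIs.

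The epithelial gate also differed between libraries in genes outside the granule list. S100a6, a calcium-binding S100 protein, stood there at 115 CPM in NCD, 571 and 5429 in the HFD pair, and 2257 in JQF, with HFD replicate 2 highest. Pglyrp1, a peptidoglycan recognition protein, stood at 12.3, 62.0, 154 and 529 CPM, with JQF highest as for Lcn2 and Ltf, and its change of 1.98 (SE 0.94) from HFD to JQF was not called (edgeR, adjusted p = 1.00).

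A JQF monocyte-gated cell of 28689 UMIs held 23 Elane UMIs, 1 Mpo UMI and 35 S100a8 UMIs, which was 1 of 5 cells of that library in the granulocyte precursor gate.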
